A study of Mus musculus with 24 samples.

Results

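Genes whose response to 1 day of interleukin 4 (IL4) differed between wild-type macrophages and macrophages labelled Tet2 knockout are described here. The measure is a difference of differences. For each gene, the change from 0 h to 24 h in wild-type cells was subtracted from the same change in the labelled knockout, on the scale log2(FPKM + 1). FPKM counts sequenced fragments relative to the length of the transcript and the size of the library. The comparison uses 8 of the 24 samples of the series, which are 2 RNA libraries in each of 4 groups of bone marrow derived macrophages from C57BL/6 mice: untreated wild type, untreated Tet2 knockout, wild type with 20 ng/ml IL4 for 24 h, and Tet2 knockout with the same treatment. All cells were grown for 7 days in medium with M-CSF and moved to a medium without it the night before IL4 was added, so the untreated cultures share that change. The series also holds 4 libraries of the same cells at 10 h and 8 libraries of macrophages from melanomas, both used below for comparison, and 4 libraries of immunoprecipitated DNA, not analysed here. The design text calls the libraries of a group biological replicates, without saying whether they came from separate mice. The p-values below rest on the spread between replicate libraries. That spread was estimated over all 12 bone marrow libraries, including the 4 at 10 h. For the bone marrow cells it is not stated which part of Tet2 was removed or in which cells.

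IL4 binds its receptor on macrophages and activates the transcription factor STAT6, which turns on the genes of alternative activation, among them arginase, lectins and chemokines. Tet2 oxidises methylated cytosine in DNA and also takes part in ending inflammatory gene expression in myeloid cells. A gene can enter this comparison along several routes. Its induction can be weaker or stronger, its repression can be weaker or stronger, or the genotypes can start apart and end together.

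Tet2 was listed in both genotypes. Its level was 4.11 and 5.91 FPKM in untreated wild type, 4.02 and 4.48 in the untreated labelled knockout, 9.38 and 9.82 in treated wild type and 11.3 and 10.3 in the treated labelled knockout. Its difference in response was 0.33 ± 0.19 (SE; limma, adjusted p = 0.374). Tet3, a related oxidase gene, was listed at 2.25 to 5.07 FPKM (0.45 ± 0.29, adjusted p = 0.430) and Tet1 at no more than 0.0149 FPKM. FPKM sums all exons of a gene and may not show that some are lost, so the groups are called labelled knockout. The 8 macrophage marker genes all reached the level for testing. Their summed level was 15300 to 19700 FPKM at 0 h in the 4 untreated libraries and at 24 h 9740 and 11400 FPKM in wild type and 7310 and 7380 in the labelled knockout, with 6 of the 8 differences in response at or below 0 and none passing (limma, 0 higher and 1 lower at an unadjusted p under 0.05). Neutrophil markers also parted at 24 h. The sum of 9 was 99.2 to 138 FPKM in the 4 untreated libraries, 153 and 151 in treated wild type and 69.1 and 105 in the treated labelled knockout. Of these, 6 were tested, all with differences below 0 (median −0.58) and none passing (limma, 0 higher and 3 lower at an unadjusted p under 0.05), while Mpo, Elane and Retnlg were under 1 FPKM in all 8 libraries. The part of either marker list in the lower responses described below was not tested. The depth of the 8 libraries relative to each other was 0.947 to 1.27, and the number of reads is unknown. Their total FPKM ran from 365118 in replicate 2 of untreated wild type to 557183 in replicate 2 of treated wild type. Levels and sums are given as listed, without rescaling. The wild-type replicates lay farther apart than the labelled knockout replicates: the median absolute log2 difference between replicates was 0.208 and 0.178 in wild type at 0 and 24 h, and 0.0725 and 0.0974 in the labelled knockout. At 10 h it was 0.0713 in wild type and 0.09 in the labelled knockout, and these libraries enter the shared estimate of spread.

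Among 10510 genes tested, 31 (0.295%) had a response that differed between the genotypes (limma, Benjamini-Hochberg adjusted p under 0.05). The labelled knockout response was lower for 21 genes (0.200%) and higher for 10 (0.0951%). An unadjusted p under 0.05 was reached by 1913 genes (18.2%), higher for 9.61% of all genes and lower for 8.59%. With 2 libraries per group each genotype has 4 possible differences between a treated and an untreated library, called its 4 responses. They did not overlap between genotypes for any of the 31 genes, and over all genes the labelled knockout responses lay wholly above those of wild type for 17.4% and wholly below for 13.1%. The median difference in response of all genes was −0.02. The count depended on single libraries. It was 1169 without replicate 1 of untreated wild type, 142 without replicate 1 of treated wild type, 11 to 37 without any other library, and 4 when limma weighted the libraries by their spread.

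**Figure D1:**
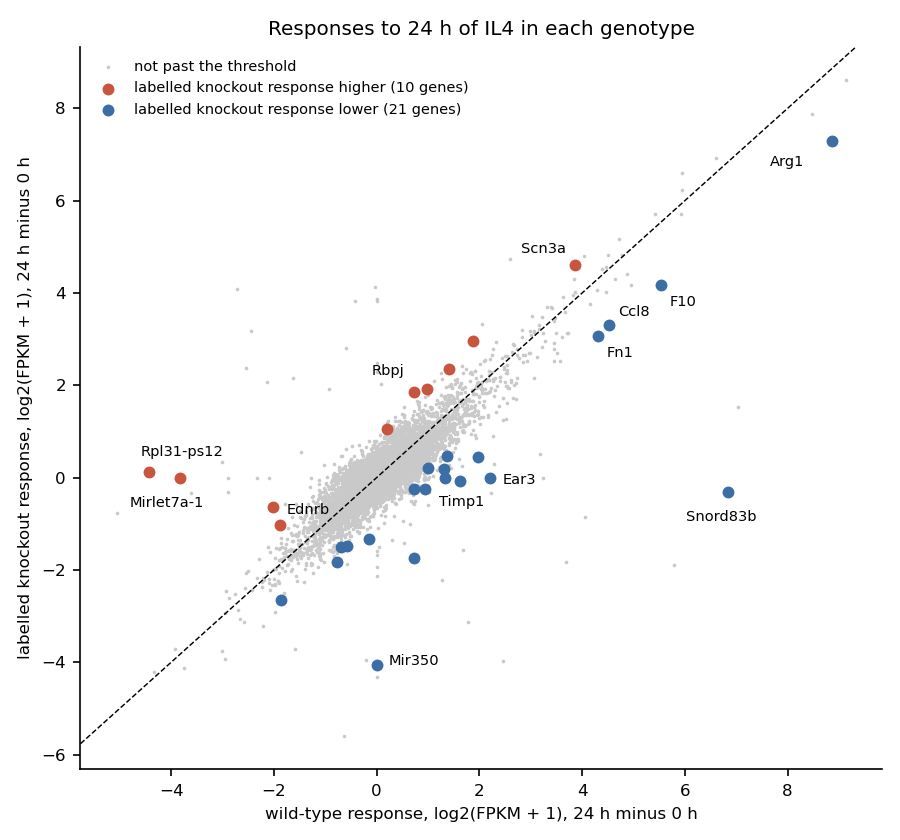
Change from 0 h to 24 h of IL4 in wild type (horizontal axis) and in the labelled knockout (vertical axis), on the log2(FPKM + 1) scale, for the 10510 genes tested; the dashed line marks equal change. The 10 genes in red lie above the line and the 21 in blue below it, and Arg1, at a wild-type change of 8.87, is at the far right.

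Within the 21 lower genes, 15 rose with IL4 in wild type past the threshold and 4 fell, where 29.7% and 20.3% of all genes did. In the labelled knockout 6 rose and 7 fell, where 26.5% and 17.1% of all genes did. Among the 10 higher genes, 5 rose and 4 fell in wild type, and 6 rose and 2 fell in the labelled knockout. These responses are the parts from which the difference is made, so they describe the genes and are no further test.

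The protein-coding genes of the lower set with the strongest induction rose in both genotypes but less in the labelled knockout. Arg1 encodes arginase, which splits arginine and is a hallmark of alternative activation. It was listed at 1.38 and 1.03 FPKM in untreated wild type and 1.63 and 1.45 in the untreated labelled knockout. After 24 h it reached 1060 and 991 FPKM in wild type and 373 and 417 in the labelled knockout. The untreated levels lay close together, and both treated wild-type libraries were above both treated labelled knockout libraries. Its response was 8.87 in wild type and 7.28 in the labelled knockout, a difference of −1.59 ± 0.17 (SE; limma, adjusted p = 0.00340). F10, the gene of coagulation factor X, started at 0.926 and 0.876 FPKM in wild type and 0.903 and 0.947 in the labelled knockout. It rose to 84.1 and 90.6 FPKM in wild type and to 30.7 and 37.1 in the labelled knockout. The groups overlapped at 0 h and were apart at 24 h, and the difference in response was −1.36 ± 0.15 (adjusted p = 0.00340). Over 19 other settings of the fit, Arg1 kept its call in 18 with estimates from −1.72 to −1.36, and F10 in 17 of the 18 in which it was tested. Library weights ended both calls (adjusted p = 0.0603 for each).

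Fn1, which encodes the matrix protein fibronectin, and the chemokine gene Ccl8 showed the same order at 24 h but started higher in the labelled knockout. Fn1 had 0.769 and 1.15 FPKM in untreated wild type against 2.33 and 2.08, and 33.2 and 43.3 FPKM in treated wild type against 25.4 and 26.1. Its difference in response was −1.26 ± 0.19 (adjusted p = 0.0228). Ccl8, a ligand that draws monocytes and T cells, had 13.4 and 11.7 FPKM in untreated wild type against 26.1 and 21.2, and 295 and 331 FPKM after IL4 against 234 and 252. The order of the genotypes thus turned for both genes between 0 and 24 h, with no overlap at either time. The genotype difference at 24 h passed for Fn1 (limma, adjusted p = 0.0345) and did not pass for Ccl8 (0.0989). For Ccl8 the difference in response was −1.22 ± 0.17 (adjusted p = 0.0203). Tgm2, the gene of tissue transglutaminase, a marker of alternative activation in mouse and human, did not rise past the threshold in the labelled knockout. It went from 10.7 and 9.57 to 23.7 and 29.9 FPKM in wild type and from 20.6 and 18.6 to 22.7 and 22.3 in the labelled knockout. The 4 treated libraries were close to each other and the untreated ones were not, and the difference in response was −1.12 ± 0.18 (adjusted p = 0.0425). Over the other settings the adjusted p reached 0.131 for Fn1, 0.189 for Ccl8 and 0.274 for Tgm2. Each lost its call without either treated labelled knockout library.

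A second set of genes also rose in wild type and was lower in the treated labelled knockout than in treated wild type, and 4 of them, Ear3, Bcam, Tm4sf19 and Slc9a3r2, were under 1 FPKM in all untreated libraries. Ear3, a ribonuclease gene of the eosinophil-associated family, was listed at 0 and 0.176 FPKM in untreated wild type, at 0.00328 and 0 in the untreated labelled knockout, at 3.80 and 4.25 in treated wild type and at 0 in both treated labelled knockout libraries. The treated wild-type libraries alone were above 1 FPKM. Ear3 belongs to a family of near-identical genes, so its reads may be split among copies, and its value is uncertain. Bcam, which encodes a laminin receptor, rose from 0 and 0.0665 to 2.58 and 3.62 FPKM in wild type and from 0.0639 and 0.0247 to 0.495 and 0.364 in the labelled knockout. The treated groups were well apart and the untreated ones overlapped, with a difference in response of −1.53 ± 0.20 (adjusted p = 0.0121). Tm4sf19, a tetraspanin-like membrane protein gene, had 2.04 and 3.03 FPKM in treated wild type, and every other library lay between 0.355 and 0.687 FPKM (−1.34 ± 0.22, adjusted p = 0.0424). Flywch2, Dnajc17, a gene of the DnaJ cochaperone family, and Slc9a3r2, which encodes a scaffold protein that binds ion exchangers, rose in wild type, while none of them passed for a change in the labelled knockout. Their differences in response were −1.18 ± 0.19 (adjusted p = 0.0424), −0.98 ± 0.14 (0.0216) and −0.81 ± 0.13 (0.0438). In the fit of only the 8 libraries compared, Flywch2 (adjusted p = 0.0687), Dnajc17 (0.0712) and Slc9a3r2 (0.136) did not pass. With a pseudocount of 0.1 in place of 1, Bcam did not pass (adjusted p = 0.0746), nor did Tm4sf19 (0.0592), Ear3 (0.113) or Slc9a3r2 (0.134).

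**Figure D2:**
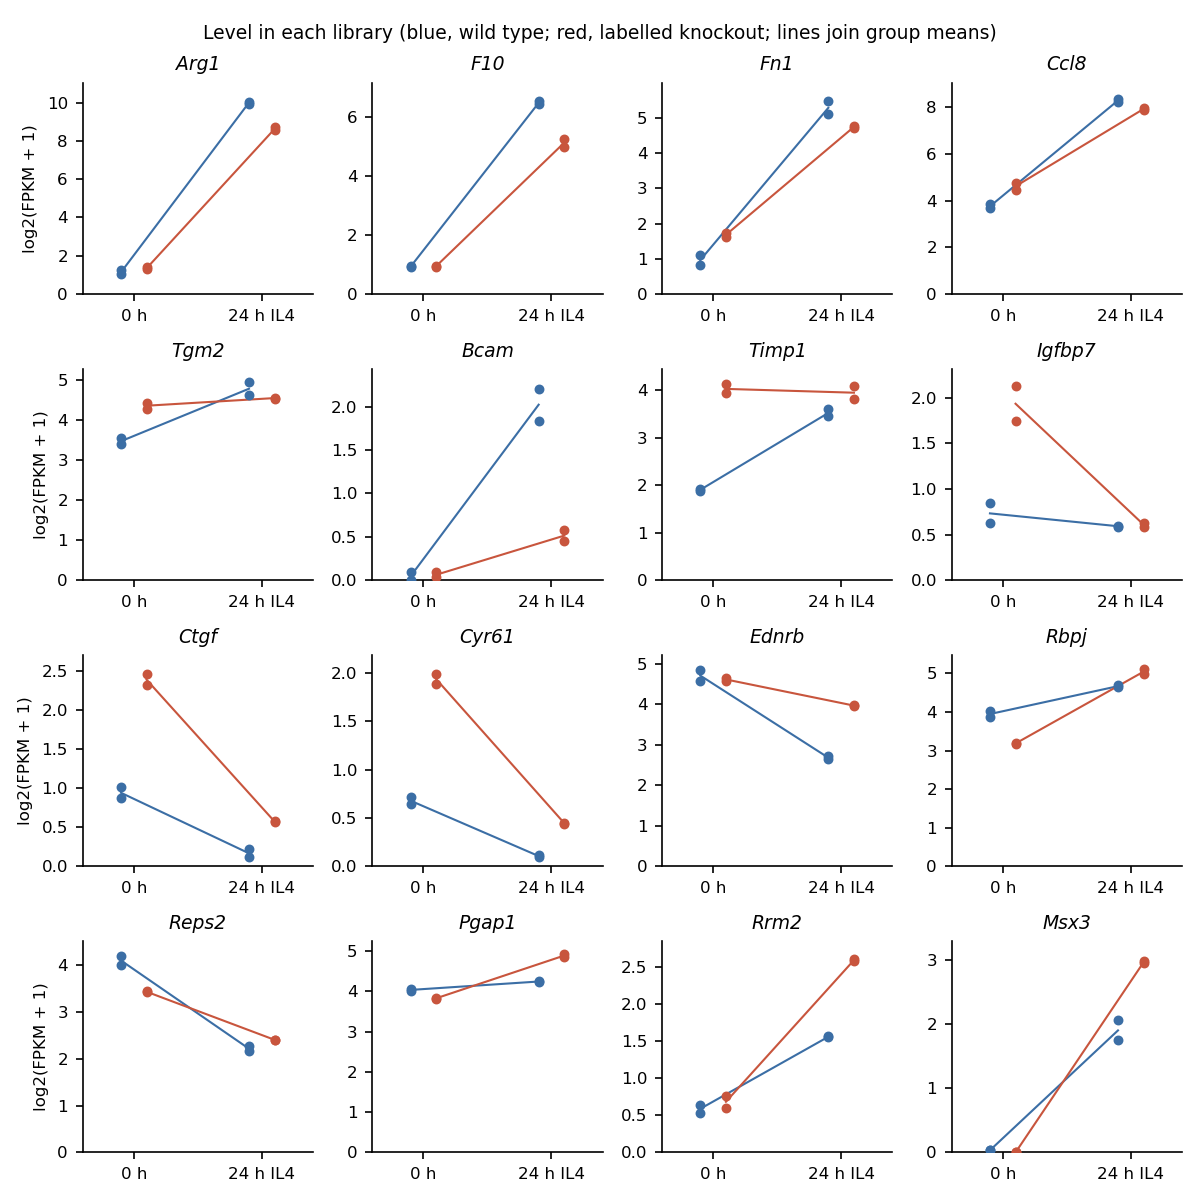
Level of 16 genes in each library at 0 h and after 24 h of IL4, as log2(FPKM + 1) on the vertical axis; blue is wild type, red the labelled knockout, points are libraries and lines join group means. Arg1, F10 and Bcam part at 24 h, Timp1, Igfbp7, Ctgf and Cyr61 are apart at 0 h and closer at 24 h, and the Rbpj and Reps2 lines cross.

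The other protein-coding genes with lower responses were Timp1, Igfbp7, Ctgf, Cyr61, Fbln2 and Cd4, which were higher in the untreated labelled knockout. Timp1, the gene of a secreted inhibitor of matrix metalloproteinases, had 2.80 and 2.68 FPKM in untreated wild type and 16.4 and 14.3 in the untreated labelled knockout. After IL4 it had 9.91 and 11.1 FPKM in wild type and 13.1 and 15.9 in the labelled knockout. Wild type rose toward a level the labelled knockout already had, and the groups did not overlap at either time. The difference in response was −1.69 ± 0.18 (adjusted p = 0.00340), and it passed in 18 of the 19 other settings, all but library weights (adjusted p = 0.108). Igfbp7, which encodes a secreted insulin-like growth factor binding protein, stood at 0.790 and 0.540 FPKM in untreated wild type against 2.34 and 3.36, and at 0.502 to 0.546 FPKM in all 4 treated libraries. The untreated labelled knockout was thus the group that stood apart, and the difference in response was −1.18 ± 0.20 (adjusted p = 0.0446). It did not pass with a pseudocount of 0.1 (adjusted p = 0.0746) or with only the 8 libraries compared (0.0971).

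Ctgf and Cyr61, genes of the CCN family of matrix-bound signalling proteins, fell in both genotypes. Both are known targets of the YAP and TEAD transcription factors. Ctgf fell from 1.02 and 0.826 to 0.0828 and 0.163 FPKM in wild type and from 4.00 and 4.49 to 0.496 and 0.479 in the labelled knockout. Cyr61 fell from 0.561 and 0.641 to 0.0698 and 0.0824 FPKM in wild type and from 2.96 and 2.70 to 0.368 and 0.357 in the labelled knockout. The labelled knockout was the higher genotype at both times. Differences in response were −1.04 ± 0.14 for Ctgf (adjusted p = 0.0154) and −0.92 ± 0.13 for Cyr61 (0.0203). Fbln2, the gene of the matrix protein fibulin 2, followed the same course (−0.80 ± 0.14, adjusted p = 0.0471), as did Cd4, which encodes a surface receptor of T helper cells that some macrophages also carry. Cd4 fell from 4.77 and 4.21 to 0.487 and 0.525 FPKM in wild type and from 13 in both libraries to 1.26 and 1.22 FPKM in the labelled knockout (−0.78 ± 0.13, adjusted p = 0.0483). These calls rest on the pseudocount, which compresses changes below 1 FPKM. With a pseudocount of 0.1 the differences were −0.67 for Ctgf (adjusted p = 0.321), −0.67 for Cyr61 (0.297), −0.51 for Fbln2 (0.406) and −0.37 for Cd4 (0.330).

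The RefSeq promoter of Cyr61 (listed as Ccn1; GRCm38.p6, chr3:145649936-145650235, minus strand) is shown because its TEAD core motif, CATTCC on either strand, is the sequence TEAD factors are known to bind, with the match in capitals.
Cyr61: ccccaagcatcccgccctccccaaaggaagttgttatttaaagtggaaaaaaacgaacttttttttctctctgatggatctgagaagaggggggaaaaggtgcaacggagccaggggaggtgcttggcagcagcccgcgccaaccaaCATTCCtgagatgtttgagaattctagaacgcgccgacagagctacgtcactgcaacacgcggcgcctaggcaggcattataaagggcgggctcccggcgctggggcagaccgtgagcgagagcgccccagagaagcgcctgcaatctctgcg
The match begins 103 bases upstream of the annotated start. Of the 31 genes, 19 had a promoter in the table and 5 of these had the motif (Cyr61, Flywch2, Pgap1, Rbpj and Timp1), against 14.7% of all 32851 promoters. A gene can have several promoters, so both shares are descriptions.

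Fibroblast markers moved with this set. Their summed level over 10 genes was 4.65 and 5.04 FPKM in untreated wild type, 23.3 and 21.2 in the untreated labelled knockout, 2.56 and 2.55 in treated wild type and 9.42 and 9.55 in the treated labelled knockout. Of the 10, 6 were under 1 FPKM in all 8 libraries, including Pdgfra, Pdgfrb and Thy1. Of the 13 tested collagen and matrix genes, 10 had labelled knockout responses wholly below those of wild type (13.1% of all genes) and 1, Timp1, passed. The 12 others did not pass, with 8 of the 13 at an unadjusted p under 0.05 and lower. The median difference in response was −0.44, with medians of −0.50 in wild type and −0.91 in the labelled knockout, and it was −0.05 with a pseudocount of 0.1. Postn, the gene of the matrix protein periostin, went from 1.02 and 0.863 to 1.43 and 1.29 FPKM in wild type and from 4.39 and 3.48 to 2.72 and 2.80 in the labelled knockout (−0.67 ± 0.15, adjusted p = 0.0884). In bulk RNA, fewer cells of a type and less RNA per cell cannot be told apart, and the part of fibroblasts in these values was not tested. T and NK cell markers other than Cd4 were under 1 FPKM in all 8 libraries, with Cd3g at 0.

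Among the 10 higher responses, Ednrb was the one that passed in all 19 other settings. It encodes the type B endothelin receptor, a G protein coupled receptor. It was at 27.9 and 22.7 FPKM in untreated wild type and 23.0 and 24.0 in the untreated labelled knockout, and IL4 lowered it to 5.58 and 5.26 FPKM in wild type but only to 14.8 and 14.5 in the labelled knockout. The untreated groups overlapped and the treated groups were far apart. The difference in response was 1.38 ± 0.15 (adjusted p = 0.00363), with estimates of 1.24 to 1.53 and adjusted p of 0.00147 to 0.0346 over the other settings. Reps2, which encodes a protein of receptor endocytosis, also fell in both genotypes. It went from 15.1 and 17.3 to 3.48 and 3.82 FPKM in wild type and from 9.87 and 9.75 to 4.31 and 4.29 in the labelled knockout. The labelled knockout was lower at 0 h (limma, adjusted p = 0.00423) and slightly higher at 24 h, where the genotype difference did not pass (0.250). The difference in response was 0.86 ± 0.14 (adjusted p = 0.0369). It did not pass with a pseudocount of 0.1 (adjusted p = 0.0561) or with only the 8 libraries compared (0.134).

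Rbpj encodes the DNA-binding factor of the Notch pathway, which joins the cleaved Notch receptor on its target genes and is also needed for parts of the alternative activation programme. In untreated cells it had 13.5 and 15.4 FPKM in wild type and 7.97 and 8.21 in the labelled knockout. After IL4 these were 23.9 and 25.0 against 30.5 and 33.6 FPKM. The labelled knockout was below wild type at 0 h and above it at 24 h, with no overlap. The genotype difference passed at 0 h (limma, adjusted p = 0.00303) and did not pass at 24 h (0.0546). The response was 0.72 in wild type and 1.86 in the labelled knockout, a difference of 1.14 ± 0.15 (adjusted p = 0.0121), and it passed in 14 of the 19 other settings. Pgap1, a gene of GPI anchor remodelling, did not pass for a change in wild type (15.7 and 15.1 to 18.1 and 17.8 FPKM) and rose in the labelled knockout (13.1 and 13.3 to 29.6 and 27.7 FPKM). The difference in response was 0.85 ± 0.12 (adjusted p = 0.0154). Both Rbpj and Pgap1 lost their call without replicate 1 or replicate 2 of the untreated labelled knockout, with adjusted p up to 0.0807 and 0.122 over all settings.

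An Rbpj promoter (GRCm38.p6, chr5:53590236-53590535, plus strand) is shown because it holds the palindrome TTCNNNNGAA that STAT6 binds, in capitals, just downstream of the annotated start.
Rbpj: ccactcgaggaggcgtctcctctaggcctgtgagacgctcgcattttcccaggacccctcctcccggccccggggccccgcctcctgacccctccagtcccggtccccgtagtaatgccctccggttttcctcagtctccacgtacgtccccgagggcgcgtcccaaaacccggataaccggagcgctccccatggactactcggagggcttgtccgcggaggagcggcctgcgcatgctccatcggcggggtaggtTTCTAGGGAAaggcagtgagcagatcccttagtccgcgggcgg
A second listed Rbpj start has no match in its window. The palindrome was in 6.95% of all promoters and, among the 19 genes with a promoter in the table, in Rbpj alone.

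Scn3a, Msx3 and Cldn11 were inductions from near 0. Scn3a, the gene of a voltage-gated sodium channel subunit, rose from at most 0.0603 FPKM in all 4 untreated libraries to 14.8 and 14.1 FPKM in wild type and 25.8 and 23.3 in the labelled knockout (0.74 ± 0.12, adjusted p = 0.0438). Msx3, a homeobox gene, rose to 2.35 and 3.16 FPKM in wild type and 6.90 and 6.69 in the labelled knockout (1.09 ± 0.15, adjusted p = 0.0154). Cldn11, a tight junction gene, rose to 1.79 and 1.59 against 3.94 and 4.30 FPKM (0.95 ± 0.16, adjusted p = 0.0446). In all 3 genes both treated labelled knockout libraries were above both treated wild-type libraries. With a pseudocount of 0.1, Msx3 passed (adjusted p = 0.0267), and Scn3a (0.0746) and Cldn11 (0.0977) did not.

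Rrm2 encodes the regulated subunit of ribonucleotide reductase, which makes the building blocks of DNA in S phase. It was at 0.559 and 0.451 FPKM in untreated wild type and 0.695 and 0.521 in the untreated labelled knockout, and at 1.94 and 1.96 FPKM in treated wild type and 4.98 and 5.10 in the treated labelled knockout. The untreated groups overlapped, the treated ones did not, and the difference in response was 0.94 ± 0.15 (adjusted p = 0.0369). With a pseudocount of 0.1 the difference was 1.10 and did not pass (adjusted p = 0.175).

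The Rrm2 promoter (GRCm38.p6, chr12:24708004-24708303, plus strand) is shown with its CCAAT box, which is common in cell cycle promoters, in capitals.
Rrm2: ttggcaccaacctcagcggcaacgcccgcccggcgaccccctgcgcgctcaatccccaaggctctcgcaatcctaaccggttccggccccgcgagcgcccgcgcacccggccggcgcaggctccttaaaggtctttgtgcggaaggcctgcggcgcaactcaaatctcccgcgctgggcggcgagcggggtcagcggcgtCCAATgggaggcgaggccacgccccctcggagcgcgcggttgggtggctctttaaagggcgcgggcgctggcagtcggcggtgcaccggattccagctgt
The box begins 50 bases upstream of the start. The letters CCAAT, searched on both strands, were in 37.4% of all promoters and in 8 of the 19 genes.

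Most cell cycle genes had estimates above 0, that is higher responses in the labelled knockout, and Rrm2 alone passed. Of 43 tested genes of G2 and mitosis, the response was higher in 35, where 47.8% of all genes were above 0, and 30 had labelled knockout responses wholly above those of wild type, where 17.4% of all genes did. None passed (limma), and 17 were higher and 1 lower at an unadjusted p under 0.05. The median difference was 0.35, with median responses of 0.61 in wild type and 1.03 in the labelled knockout. Their summed level was 126 and 103 FPKM in untreated wild type, 133 and 131 in the untreated labelled knockout, 165 in both treated wild-type libraries and 213 and 239 in the treated labelled knockout. The 2 treated labelled knockout libraries were thus the highest of the 8. With a pseudocount of 0.1, 17 of the 43 were wholly above, and the median was 0.34.

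Aurka, the kinase gene that matures the mitotic spindle poles, had 0.708 and 0.786 FPKM in untreated wild type and 0.946 and 0.603 in the untreated labelled knockout, then 1.48 and 1.59 against 3.50 and 3.27 FPKM (0.78 ± 0.15, adjusted p = 0.0618). Cdk1, the mitotic kinase gene, had 2.93 and 3.37 FPKM in treated wild type and 6.24 and 5.63 in the treated labelled knockout, from 2.37 to 3.01 FPKM at 0 h in all 4 libraries (0.61 ± 0.14, adjusted p = 0.0884). Differences in response were 0.63 ± 0.15 for the cytokinesis gene Racgap1 (adjusted p = 0.0962) and 0.53 ± 0.14 for the condensin gene Smc2 (0.122). The treated labelled knockout libraries were the 2 highest for each of these 4 genes.

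Of 40 tested genes of DNA replication and S phase, 34 were above 0, where 47.8% of all genes were. In 15 the responses lay wholly above, where 17.4% of all genes did. At an unadjusted p under 0.05 (limma), 14 were higher and 1 lower. The median difference was 0.27, with median responses of 0.52 and 0.77. Without replicate 1 of untreated wild type the median was 0.11. Mcm4, a subunit of the replicative helicase, had 4.85 and 4.08 FPKM in treated wild type and 7.68 and 8.14 in the treated labelled knockout, from 4.12 to 4.78 FPKM at 0 h (0.59 ± 0.13, adjusted p = 0.0884). Uhrf1, which recruits Dnmt1 to newly copied DNA, was already higher in the untreated labelled knockout, at 1.12 and 1.21 against 0.499 and 0.447 FPKM. After IL4 it had 8.08 and 7.51 against 3.19 and 3.29 FPKM. Its difference in response was 0.50 ± 0.12 (adjusted p = 0.105) and 0.10 with a pseudocount of 0.1. The 15 tested genes of G1 cyclins and CDK inhibitors had a median of 0.16, and 7 were wholly above, where 17.4% of all genes were. Cdkn1a, the gene of the inhibitor p21, was at 0.56 ± 0.19 (adjusted p = 0.177).

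**Figure D3:**
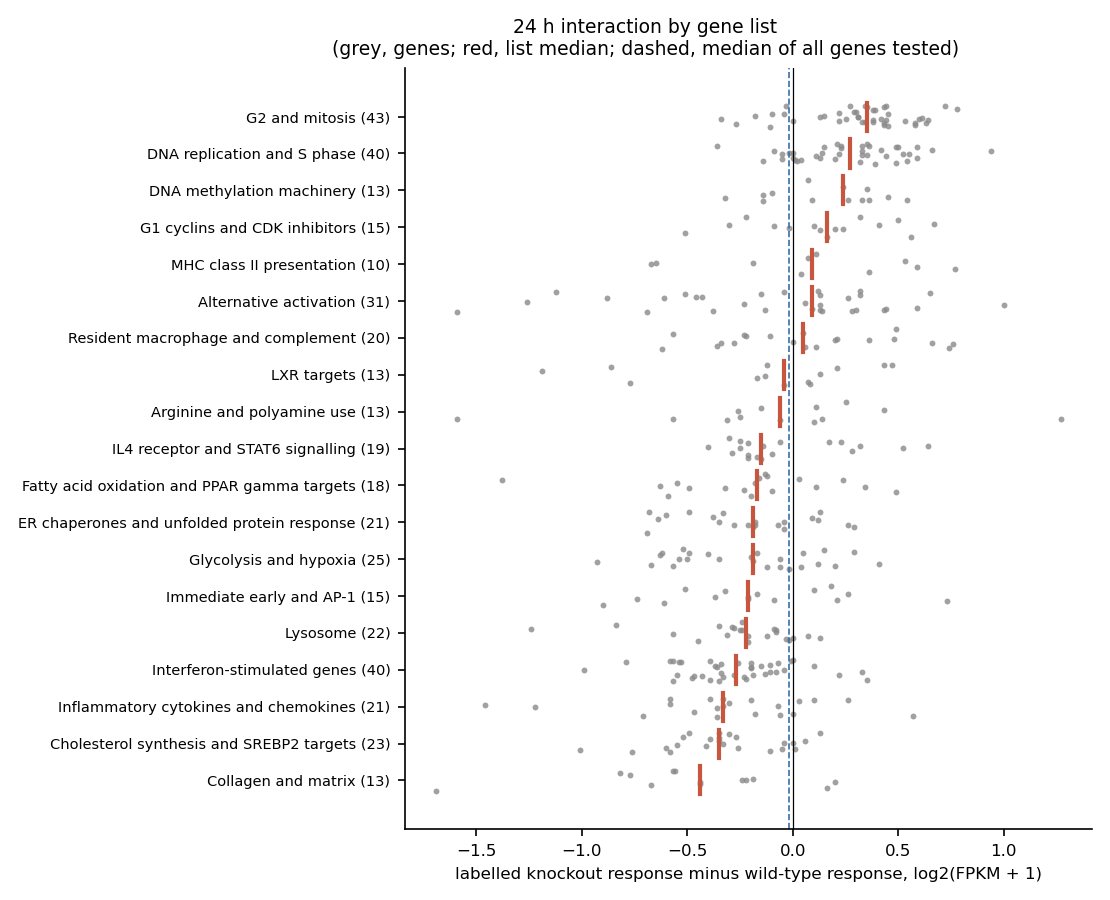
Difference in response (labelled knockout minus wild type, log2(FPKM + 1)) of every tested member of 19 gene lists, 1 grey point per gene, with the number tested in brackets; red bars are list medians and the dashed line is the median of all genes. The list of G2 and mitosis has the highest median, 0.35, and that of collagen and matrix the lowest, −0.44.

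Of 31 tested genes of alternative activation, 3 passed as lower (Arg1, Fn1 and Tgm2) and 0 as higher (limma, with 4 higher and 6 lower at an unadjusted p under 0.05). The responses of 17 members were above 0 and of 14 were not. The median difference was 0.09, with median responses of 3.39 in wild type and 3.30 in the labelled knockout, and its sign turned without replicate 1 of untreated wild type (−0.04) or replicate 2 of the treated labelled knockout (−0.03). Clec10a, a galactose-type lectin gene, had a difference of the opposite sign to Arg1. It had 129 and 103 FPKM in untreated wild type and 62.2 and 61.4 in the untreated labelled knockout, and 257 to 300 FPKM in the 4 treated libraries (1.00 ± 0.18, adjusted p = 0.0594). Retnla, Chi3l3 and Mrc1, classical markers named here after their values were seen, differed by −0.51 ± 0.26 (adjusted p = 0.321), 0.28 ± 0.20 (0.482) and 0.12 ± 0.18 (0.752). Of 13 genes of arginine and polyamine use, 1 passed, Arg1. Asl, which makes arginine in the urea cycle, differed by −0.57 ± 0.13 (adjusted p = 0.0884), and Odc1, which starts polyamine synthesis from the product of arginase, by −0.26 ± 0.13 (0.324). No gene of the 19 tested in IL4 receptor and STAT6 signalling passed (limma, 0 higher and 1 lower at an unadjusted p under 0.05). Among them Socs2, a feedback inhibitor, differed by −0.29 ± 0.15 (adjusted p = 0.312).

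Genes of cholesterol synthesis and uptake had a median response to IL4 of 1.24 in wild type and 0.96 in the labelled knockout. Of 23 tested members, 20 had a difference at or below 0 and 12 had responses wholly below, where 13.1% of all genes did. None passed (limma), 9 were lower and 0 higher at an unadjusted p under 0.05, and the median was −0.35. The genotypes were apart mainly before treatment. The median of labelled knockout minus wild type was 0.32 at 0 h, with 5 genes higher and 0 lower past the threshold. At 24 h it was 0.02, with 0 higher and 0 lower. Fdps, which makes farnesyl diphosphate, had 16.0 and 12.7 FPKM in untreated wild type and 26.9 and 21.9 in the untreated labelled knockout, then 92.7 and 106 against 79.2 and 83.1 FPKM (−1.01 ± 0.19, adjusted p = 0.0594). Fdps was higher in the labelled knockout at 0 h and lower at 24 h, with no overlap at either time. Its genotype difference passed at 0 h (limma, adjusted p = 0.0188) and did not pass at 24 h (0.226). Nr1h3, the gene of the sterol receptor LXR alpha, had 3.87 FPKM in both untreated wild-type libraries and 10.3 and 9.20 in the untreated labelled knockout, then 11.7 and 16.1 against 14.4 and 12.2 (−1.19 ± 0.22, adjusted p = 0.0594). The median difference in response of the cholesterol genes stayed between −0.44 and −0.22 with any 1 library left out.

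In the other lists 1 gene, Ccl8, passed. The counts of responses wholly above or below in these lists stand beside 17.4% above and 13.1% below over all genes. In the shortest of 5 equal groups of genes by length in the genome, 7.95% lay wholly above and 20.2% wholly below. Genes of the DNA methylation machinery, among them writers and readers of the mark that Tet2 oxidises, had a median of 0.24, with 9 of 13 above 0, 2 wholly above and 1 wholly below. None passed (limma, 0 higher and 1 lower at an unadjusted p under 0.05). The lower one was Dnmt3a, a gene of a methyltransferase that sets new marks, which went from 10.3 and 10.4 to 19.3 and 22.5 FPKM in wild type and from 13.3 and 13.2 to 21.0 and 21.1 in the labelled knockout (−0.32 ± 0.14, adjusted p = 0.272). The 21 inflammatory cytokines and chemokines had a median of −0.33, with 9 wholly below. Ccl4, a chemokine that draws lymphocytes and monocytes, had 41.3 and 31.5 FPKM in untreated wild type and 69.3 and 70.9 in the untreated labelled knockout, then 41.7 and 65.5 against 34.0 and 38.4 (−1.46 ± 0.28, adjusted p = 0.0594). Of 40 interferon-stimulated genes, 35 were at or below 0 with a median of −0.27, but 6 were wholly below, and the median was 0.05 without replicate 1 of the untreated labelled knockout. Glycolysis and hypoxia genes had a median of −0.19 with 10 of 25 wholly below, led by Ankrd37, a target of hypoxia-inducible factor (−0.93 ± 0.17, adjusted p = 0.0594). The 22 lysosome genes had a median of −0.22. Among them were Acp5 (−1.24 ± 0.23, adjusted p = 0.0594) and Ctsk (−0.84 ± 0.17, 0.0681), a phosphatase and a protease gene that also mark osteoclasts. Fabp4, a lipid-binding protein gene and PPAR gamma target, went from 79.9 and 62.3 to 376 and 316 FPKM in wild type and from 97.4 and 95.2 to 153 and 212 in the labelled knockout (−1.38 ± 0.25, adjusted p = 0.0594). Its list of 18 genes of fatty acid oxidation and PPAR gamma had a median of −0.17. Atf3, a stress-induced transcription factor gene, differed by −0.90 ± 0.18 (adjusted p = 0.0704), in a list of 15 immediate early genes with a median of −0.21. The 21 genes of ER chaperones and the unfolded protein response had a median of −0.19 with 8 wholly below, and Sdf2l1 among them differed by −0.68 ± 0.15 (adjusted p = 0.0883). The 13 LXR targets had a median of −0.04 with 6 above 0. Among them Apoe, the apolipoprotein E gene, differed by −0.86 ± 0.23 (adjusted p = 0.122). Of 10 MHC class II genes, 7 were above 0. Cd74, the invariant chain gene, differed by 0.77 ± 0.24 (adjusted p = 0.163), and the lysosomal thiol reductase gene Ifi30 by −0.67 ± 0.15 (0.0883). Of 20 resident macrophage and complement genes, 11 were above 0. P2ry12, a purinergic receptor gene, went from 4.10 and 3.22 to 0.595 and 0.727 FPKM in wild type and from 0.893 and 0.967 to 0.196 and 0.141 in the labelled knockout (0.76 ± 0.16, adjusted p = 0.0789). The pseudocount of 1 compresses changes below 1 FPKM. A weaker fall of P2ry12 in the labelled knockout can therefore not be read from this difference. Several of these medians turned sign with 1 library left out. MHC class II went from 0.09 to −0.15 without replicate 1 of treated wild type and to −0.02 without replicate 1 of untreated wild type, LXR targets to 0.17 and 0.03 without replicate 2 of treated or untreated wild type, fatty acid oxidation to 0.01 without replicate 2 of untreated wild type and resident macrophage genes from 0.05 to −0.06 without its replicate 1.

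Of the 31 genes, 6 are known by a number, are small RNA genes or are read as a processed copy, and they are named here after their values were seen. The long noncoding RNA gene 4933417E11Rik rose from at most 0.0498 FPKM in the 4 untreated libraries to 1.5 and 1.69 FPKM in wild type and 0.423 and 0.394 in the labelled knockout (−0.92 ± 0.14, adjusted p = 0.0231). Mir350 was listed at 17.4 and 20.2 FPKM in the untreated labelled knockout, at 0.424 and 0 in the treated labelled knockout and at 0 in all 4 wild-type libraries. Mirlet7a-1 was listed at 13.3 and 13.1 FPKM in untreated wild type and at 0 in the 6 others. Rpl31-ps12 had 29.0 and 23.5 FPKM in untreated wild type and at most 0.271 in the others. Its name is that of a processed copy, while the RefSeq entry matched to it is listed as protein coding. For Mir350, Mirlet7a-1 and Rpl31-ps12 the untreated libraries of 1 genotype stood alone. The table holds 1 value per gene model, so RNA of the hairpin and of the mature miRNA cannot be told apart, and for models this short an FPKM rests on few fragments. The small nucleolar RNA gene Snord83b had 0 and 0.693 FPKM in untreated wild type, 136 and 161 in treated wild type, 83.6 and 32.3 in the untreated labelled knockout and 54.0 and 32.3 in the treated labelled knockout. Snora43 had 22.7 and 15.0, 33.1 and 29.3, 76.2 and 44.1, and 17.7 and 15.9 FPKM in the same order. The replicates of the untreated labelled knockout were far apart for both, and both lie within other genes in snoRNA host transcripts, whose fragments can count toward them.

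The mature miRNAs (RefSeq, GRCm38.p6) are given to identify the 2 miRNA genes, with the seed, bases 2 to 8, in capitals. The hairpin of Mir350 is on the minus strand of chromosome 1 and that of Mirlet7a-1 on the minus strand of chromosome 13, and none of the 4 share a seed.
miR-350-3p: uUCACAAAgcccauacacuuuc
miR-350-5p: aAAGUGCAugcgcuuuggg
let-7a-5p: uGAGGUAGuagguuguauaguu
let-7a-1-3p: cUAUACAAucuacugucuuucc

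The comparison at 10 h uses the same untreated libraries, so its values are given side by side and not as a second test. The difference in response of Arg1 was −1.39 at 10 h (limma, adjusted p = 0.0113) and −1.59 at 24 h. For F10 these were −0.52 (0.698) and −1.36, and for Ednrb 0.64 (0.523) and 1.38. Timp1 was at −0.02 at 10 h, with 4.06 and 3.08 FPKM in wild type and 18.0 and 19.3 in the labelled knockout. Rbpj was at 0.38 at 10 h and Rrm2 at 0.41 (adjusted p = 0.994 for both). The median of G2 and mitosis was −0.04 at 10 h and 0.35 at 24 h, and that of cholesterol genes −0.27 and −0.35. At 10 h, 10 genes (0.0951%) passed.

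Macrophages from melanomas were other mice and other libraries, made from polyadenylated RNA, with 4 wild-type libraries and 4 labelled knockout libraries in which Tet2 was deleted by a Cre driven by LysM. Only the genotype difference can be read there, since none was treated with IL4. Of the 31 genes, 14 reached the level for testing. None passed (limma, adjusted p from 0.0538 to 0.919, where 0.0864% of 9261 genes tested in both tables passed), and 5 of 14 had the sign of the difference seen at 24 h in bone marrow cells. Arg1 had 37.9, 25.6, 29.6 and 88.3 FPKM in wild type and 3.66, 1.36, 6.55 and 3.61 in the labelled knockout, a difference of −3.21 ± 0.45 (adjusted p = 0.0538) with no overlap. Tgm2, level at 24 h in culture, had 68.4 to 197 FPKM in wild type and 213 to 508 in the labelled knockout (1.34 ± 0.41, adjusted p = 0.185). Fn1 had 91.0 to 351 FPKM against 18.1 to 62.0 (−2.07 ± 0.50, adjusted p = 0.138).

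The difference in response varied with the length of the gene in the genome. Over 10443 genes with a RefSeq span, the median was −0.16 in the shortest of 5 equal groups (median span 3.77 kb), −0.10, −0.03 and 0.05 in the next, and 0.13 in the longest (102 kb). The wild-type response fell from 0.23 to −0.12 over the 5 groups, and that of the labelled knockout from 0.09 to 0.03. The replicates of untreated wild type differed along the same axis: replicate 1 minus replicate 2 had a median of 0.23 in the shortest group and −0.01 in the longest. In treated wild type these were −0.20 and −0.05. In the labelled knockout the medians lay between −0.07 and 0.01. The 20 lower genes with a span had a median of 11.6 kb, the 10 higher 22.2 kb and all genes 21.2 kb. With the trend removed in each library, chosen after the data were seen, 145 genes passed (71 higher and 74 lower), including 28 of the 31. List medians were then 0.36 for G2 and mitosis, 0.32 for S phase, −0.28 for cholesterol genes and −0.48 for collagen and matrix genes. Others moved toward 0: immediate early genes from −0.21 to −0.03, inflammatory genes from −0.33 to −0.20, ER chaperones from −0.19 to −0.11 and alternative activation from 0.09 to 0.01. Some moved away from 0: G1 genes from 0.16 to 0.27, MHC class II from 0.09 to 0.20 and LXR targets from −0.04 to −0.10. The part of gene length in the single results was not tested beyond this.

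**Figure D4:**
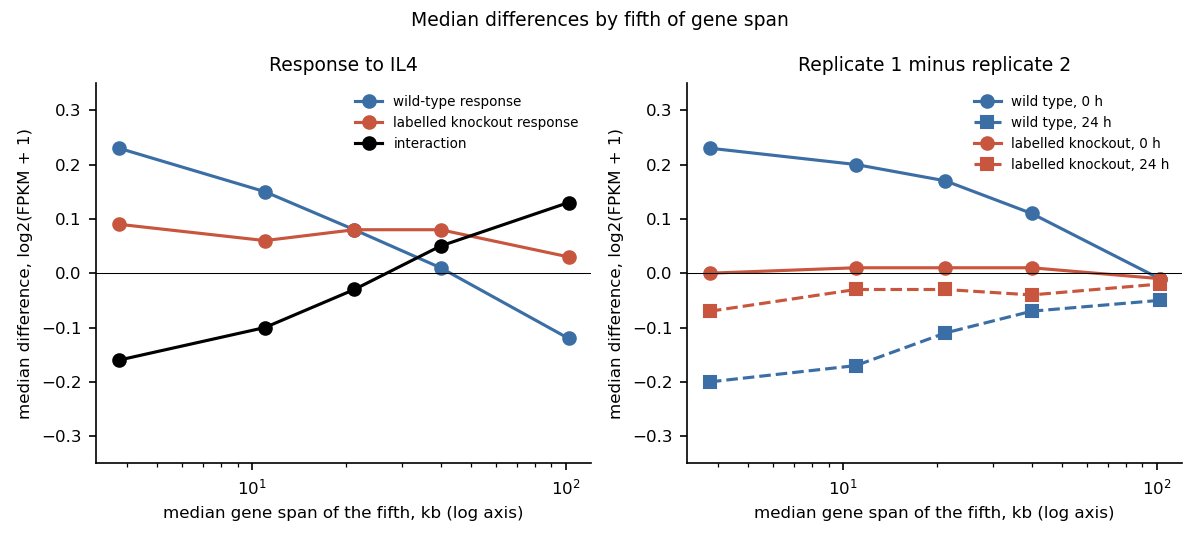
Median log2(FPKM + 1) differences in 5 equal groups of genes ordered by genomic span (horizontal axis, kb, log scale): left, the responses of both genotypes and their difference; right, replicate 1 minus replicate 2 in each group. The difference in response climbs from −0.16 to 0.13, and for short genes the wild-type replicates differ more than those of the labelled knockout.

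Single genes differed in how far their call depended on the settings, as the map of calls shows. Mir350, Mirlet7a-1 and Rpl31-ps12 passed in all 16 other settings in which they were tested, and Ednrb in 19 of 19. Mir350 was not tested without replicate 1 or 2 of the untreated labelled knockout. Mirlet7a-1 and Rpl31-ps12 were not tested without replicate 1 or 2 of untreated wild type. Only in those libraries did each reach 1 FPKM, so the filter dropped it there, and these settings could not check its call. Of the 31 genes, 29 passed without replicate 1 of untreated wild type, 28 without replicate 1 and 19 without replicate 2 of treated wild type. Only 10 passed without replicate 2 of untreated wild type, 10 and 11 without replicates 1 and 2 of the untreated labelled knockout, and 11 and 9 without replicates 1 and 2 of the treated labelled knockout. With the 10 h libraries left out of the fit, so that only the 8 libraries compared set the spread, 10 of the 31 passed. No estimate of the 31 changed sign in any setting. Leaving out a library could not change it, since the responses of the genotypes did not overlap for any of the 31. The fits of only the 8 libraries, without intensity trend, with replicate blocks or with library weights keep the estimate itself. The constant sign is therefore largely given in advance.

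**Figure D5:**
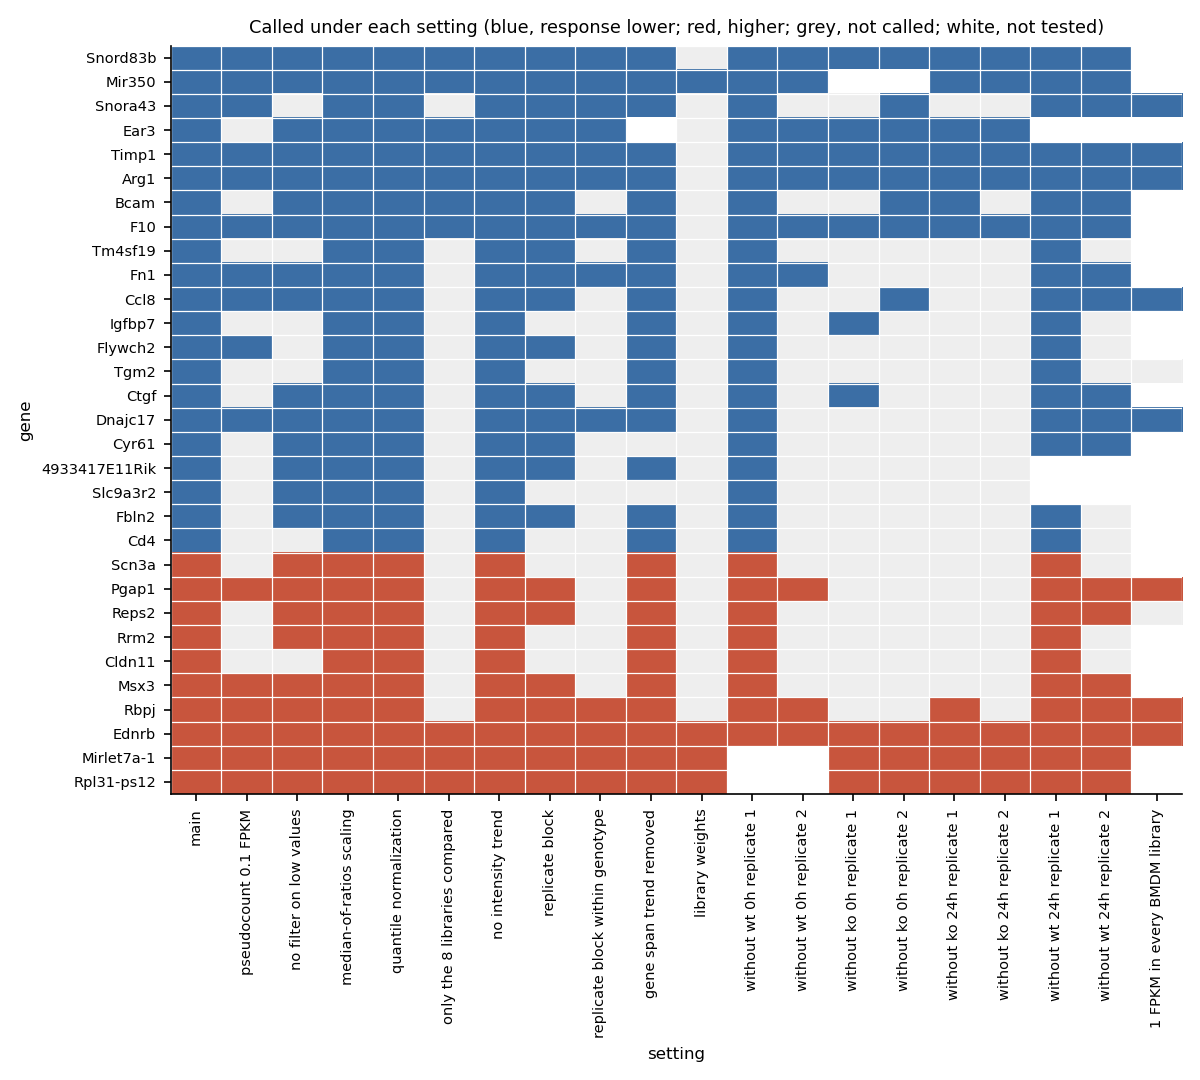
The 31 genes (rows) under the reported fit and 19 other settings (columns): blue and red mark a response lower or higher in the labelled knockout past the threshold, grey a gene tested and not past it, white a gene not tested. Ednrb is red in every column, and with library weights 4 genes remain.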

How the data were processed

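RNA libraries of macrophages were compared as deposited. The authors deposited FPKM per gene and library. TopHat, the mm9 build and Cuffdiff are named per the submitters' processing notes, while versions and annotation are not given in the sources used here. Per the labels, ribosomal RNA was depleted. FPKM hold no counts, so depth is unknown and no counting interval is given. Relative depth is a median ratio over genes with a mean under 0.15 FPKM that were nonzero in both libraries. In it, the FPKM of replicate 1 of untreated wild type was divided by that of each library. Whether Cuffdiff scaled libraries further is not given in the sources used here.

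Values were analysed as log2(FPKM + 1), a scale that understates changes of low genes, with R 4.3.3 and limma 3.58.1. The 12 BMDM libraries were fitted as 6 groups (6 residual degrees of freedom, 10.3 with the prior) with an intensity trend. Genes with 1 FPKM in at least 2 libraries were tested, with Benjamini-Hochberg adjustment across all of them and a threshold of 0.05. The melanoma table names no unit and was read as FPKM because of those notes. It was fitted apart (9897 genes with 1 FPKM in 4 libraries). Scripts were tested on simulated data. Python 3.11.15 made the tables and, with matplotlib 3.10.9, the figures (pandas 2.3.3, numpy 2.4.6). Of 23309 gene rows, 27 symbols read as dates and 2 are listed more than once.

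The comparison, the gene lists and the rule for named genes were chosen with earlier results of these data known. The rule names the 12 highest and 12 lowest differences past the threshold with responses that do not overlap, in each list the 4 tested genes of smallest p, and the Tet genes. Not every gene that it names is reported here. Gene spans and promoters came from RefSeq (GRCm38.p6, 9720 symbols and 723 synonyms matched), not from mm9, and no coordinate was converted. Alternatives were another pseudocount, filters, scalings, the 8 libraries alone, no trend, replicate blocks and each library left out, and, added after the data were seen, the span trend and library weights.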

Additional observations from a re-analysis of the deposited data

Results flagged for a closer look

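All 31 genes whose response to 24 h of IL4 differed between genotypes are listed here because the difference itself passed (limma, adjusted p under 0.05). On the log2(FPKM + 1) scale the labelled knockout response was lower by −1.59 for Arg1, −1.36 for F10, −1.26 for Fn1, −1.22 for Ccl8, −1.12 for Tgm2, −2.21 for Ear3, −1.53 for Bcam and −1.34 for Tm4sf19. It was also lower by −1.18 for Flywch2, −0.98 for Dnajc17, −0.81 for Slc9a3r2 and −0.92 for 4933417E11Rik, all of which rose in wild type. Values were −1.69 for Timp1, −1.18 for Igfbp7, −1.04 for Ctgf, −0.92 for Cyr61, −0.80 for Fbln2 and −0.78 for Cd4, which started higher in the labelled knockout. Small RNA genes had −7.15 for Snord83b, −4.05 for Mir350 and −2.45 for Snora43.

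The response was higher by 1.38 for Ednrb, 1.14 for Rbpj, 1.09 for Msx3, 0.95 for Cldn11, 0.94 for Rrm2, 0.86 for Reps2, 0.85 for Pgap1 and 0.74 for Scn3a. It was 3.82 for Mirlet7a-1 and 4.56 for Rpl31-ps12.

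In the melanoma macrophages 28 groups of 4 libraries were examined for a library far from the others, and chance gives about 1 in 20. Cyr61 was at 64.5 FPKM in wild-type library 8, against 6.94 to 11.8 in the others, and Snora43 at 41.9 FPKM in labelled knockout library 4, against 0 in the others.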

How the results depend on the processing

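The count of 31 genes (10 higher, 21 lower) became 17 (10 lower) with a pseudocount of 0.1, 96 (42 and 54) with no filter, 8 (3 and 5) where every library had to reach 1 FPKM, 156 (47 and 109) after median-of-ratios scaling, 115 (42 and 73) after quantile normalization, 14 (4 and 10) with only the 8 libraries, 145 (71 and 74) with the span trend removed and 4 (3 and 1) with library weights. Leaving out 1 library gave 11 to 1169 genes, 3 to 563 higher and 7 to 606 lower. List medians then ranged from 0.11 to 0.39 for S phase, −0.04 to 0.14 for alternative activation, −0.06 to 0.11 for resident macrophage genes, −0.15 to 0.35 for MHC class II, −0.56 to 0.05 for interferon-stimulated genes, −0.22 to 0.17 for LXR targets, −0.15 to 0.04 for arginine use, −0.30 to 0.01 for fatty acid oxidation, −0.31 to 0.03 for IL4 receptor signalling, −0.42 to 0.00 for immediate early genes and −0.56 to −0.37 for collagen and matrix genes. The 8 other lists kept their sign. Collagen and matrix was −0.05 with a pseudocount of 0.1, −0.23 with no filter and −1.69 with 1 FPKM in every library, where Timp1 alone was left. Medians changed sign for alternative activation without replicate 1 of untreated wild type (−0.04) or replicate 2 of the treated labelled knockout (−0.03), resident macrophage genes (−0.06) without replicate 1 of untreated wild type, fatty acid oxidation (0.01) without its replicate 2, IL4 receptor signalling (0.03) without replicate 2 of treated wild type and interferon-stimulated genes (0.05) without replicate 1 of the untreated labelled knockout. They did so for MHC class II without replicate 1 of untreated (−0.02) or treated (−0.15) wild type and LXR targets without replicate 2 of either (0.03 and 0.17). Arginine use turned to 0.11 after quantile normalization, to 0.02 with no filter or only the 8 libraries, to 0.03 with the span trend removed and to 0.04 without replicate 2 of the untreated or replicate 1 of the treated labelled knockout. The cause was not tested. Of 1866 estimates of named genes, 0 changed sign, 207 lost and 104 gained a call. For genes whose responses do not overlap between genotypes, leaving out 1 library cannot change the sign. A gene below a filter has no value there. Replicate numbers shared no deviations (r from −0.141 to 0.108 between the 4 groups), so they are not a pairing. A replicate block gave 25 genes, a block within genotype 13 (4 higher, 9 lower). With 2 libraries per group and no counts, changes in genes near 1 FPKM are the least certain.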
